A study of Mus musculus with 4 samples.

Results

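The genes described here are 8 members of the cholesterol pathway, Hmgcs1, Idi1, Fdps, Fdft1, Sqle, Lss, Cyp51 and Insig1. They were taken by name from the deposited tables of 24411 genes, and all 8 were found and passed the filter on low counts, which left 12244 genes for testing. Of these, 7 encode enzymes of synthesis and Insig1 encodes a sterol sensor. None encodes an uptake receptor, so that uptake genes are described from a separate list.

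The study profiled mouse hematopoietic stem cells in which Dis3, the gene of a catalytic subunit of the RNA-degrading exosome, had been targeted, beside wild-type cells. The Dis3-/- libraries came from Dis3fl/fl;Mx-Cre marrow and the wild-type libraries from Dis3fl/fl marrow without Cre, both C57BL/6, with 2 libraries each and 2 mice per the design text. Marrow of either kind had been grafted into lethally irradiated CD45.1 hosts, which had then been given 300 µg of pIpC (a double-stranded RNA made in the laboratory) on days 0 and 2. The labels give this schedule for both genotypes alike. On day 4, cells that were negative for lineage markers and CD48 and positive for EPCR and CD150 were sorted, 100 to a library. The Mx promoter that drives Cre answers to interferon and is not specific to stem cells, and the sort as given in the labels names no CD45 allele, so that surviving host cells are not addressed by it. Ages were not given in the sources used here.

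Cholesterol is made from acetyl-CoA. The mevalonate steps yield isoprenoid diphosphates, these are joined to squalene, and squalene is oxidised and closed into lanosterol, which a further set of enzymes turns into cholesterol. Most genes of the route are known targets of the transcription factor SREBP2. SREBP2 is carried out of the endoplasmic reticulum by SCAP when sterols are low, while the INSIG proteins hold SCAP back when sterols are high. Insig1 is itself known as an SREBP target.

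SREBP is known to act beside the factors NF-Y and Sp1 at such promoters, so the bases before the start of transcription were read for the letters these factors are known to bind. RefSeq promoter sequences (GRCm38.p6, the assembly of mm10) matched 5 of the 8 genes, and Fdps, Fdft1 and Sqle had no entry. In the 250 bases before the start, on both strands, the sterol element TCACNCCAC was found in 1 of the 5, Hmgcs1, and in 1.05% of all 32851 promoter entries. CCAAT, bound by NF-Y, was found in 5 of 5 and in 33.8% of all. The GC box GGGCGG, bound by Sp1, was found in 5 of 5 and in 32.7% of all, and the E box CACGTG in 1 of 5, Insig1, and in 6.02% of all. None of these motifs contains another. A match of letters is not a binding site, and a window without them says nothing of the factor. Printed here are Hmgcs1 (chr13:119690101-119690350, plus strand), which holds the sterol element, Insig1 (chr5:28071162-28071411, plus strand), whose expression fell most, and Idi1 (chr13:8885356-8885605, plus strand), whose value was nearest 0. Capitals mark the sterol element and CCAAT or its reverse ATTGG.
Hmgcs1: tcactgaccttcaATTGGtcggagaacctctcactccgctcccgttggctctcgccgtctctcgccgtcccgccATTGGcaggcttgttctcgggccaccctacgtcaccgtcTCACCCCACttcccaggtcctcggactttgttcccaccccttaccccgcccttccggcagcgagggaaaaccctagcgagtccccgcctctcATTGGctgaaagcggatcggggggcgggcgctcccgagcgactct
Insig1: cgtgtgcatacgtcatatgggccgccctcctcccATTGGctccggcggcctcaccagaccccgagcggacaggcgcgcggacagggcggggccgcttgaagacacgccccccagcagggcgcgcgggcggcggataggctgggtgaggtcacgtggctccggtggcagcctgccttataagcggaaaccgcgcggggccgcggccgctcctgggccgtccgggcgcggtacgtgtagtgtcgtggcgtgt
Idi1: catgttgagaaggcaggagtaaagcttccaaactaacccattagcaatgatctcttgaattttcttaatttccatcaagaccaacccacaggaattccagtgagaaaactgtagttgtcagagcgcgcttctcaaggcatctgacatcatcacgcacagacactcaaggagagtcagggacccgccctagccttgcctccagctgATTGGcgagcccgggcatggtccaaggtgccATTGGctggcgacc
The sterol element of Hmgcs1 began 137 bases before the start, with CCAAT letters beginning 237, 176 and 45 bases before it. Those of Idi1 began 45 and 14 bases before the start, and that of Insig1 216 bases before it.

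Depth was 6085367 and 6442740 expected counts in the Dis3-/- libraries and 6818535 and 6251761 in the wild-type libraries. Dis3 (chromosome 14, 99076634 to 99099780, mm10) had 14.1 and 18.5 TPM in Dis3-/- libraries, against 36.9 and 34.6 TPM in wild-type libraries (-1.02 ± 0.14 on the log2 scale, SE; edgeR adjusted p = 2.58e-04). The sources used here do not give which part of Dis3 is deleted, and its remaining reads may lie outside that part. The share of sorted cells that carried the deletion, or that came from the host, was not tested. Over all genes, 23.0% of those tested passed an adjusted p of 0.05, with 12.7% higher and 10.2% lower in Dis3-/- cells. Of the genes called, 55.5% were higher in Dis3-/- cells, but 45.3% and 44.7% on TPM values with a pseudocount of 1 and 0.1. On TPM values the median log2 difference of all genes was -0.11 with either pseudocount.

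Expression of the cholesterol genes was lower in Dis3-/- stem cells. Of the 8 genes 5 fell by edgeR's test (Insig1, Lss, Hmgcs1, Sqle and Cyp51), against a background of 10.2% of all tested genes that were called lower. Called higher were 0 (0 at an unadjusted p under 0.05, and 0 by DESeq2), beside 12.7% of all tested genes. The median log2 fold change of the 8 was -0.40, beside -0.0027 for all tested genes. In 7 of 8 both Dis3-/- libraries lay below both wild-type libraries, which held for 30.5% of all tested genes; Idi1 was the exception. The count of calls depended on single libraries. It was 1, Insig1, without Dis3-/- replicate 1, and 2 without wild-type replicate 1 (Insig1 and Lss) or wild-type replicate 2 (Insig1 and Hmgcs1); DESeq2 likewise called 1, Insig1. In bulk libraries, fewer cells that express a gene and less of its RNA per cell cannot be told apart.

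**Figure D1:**
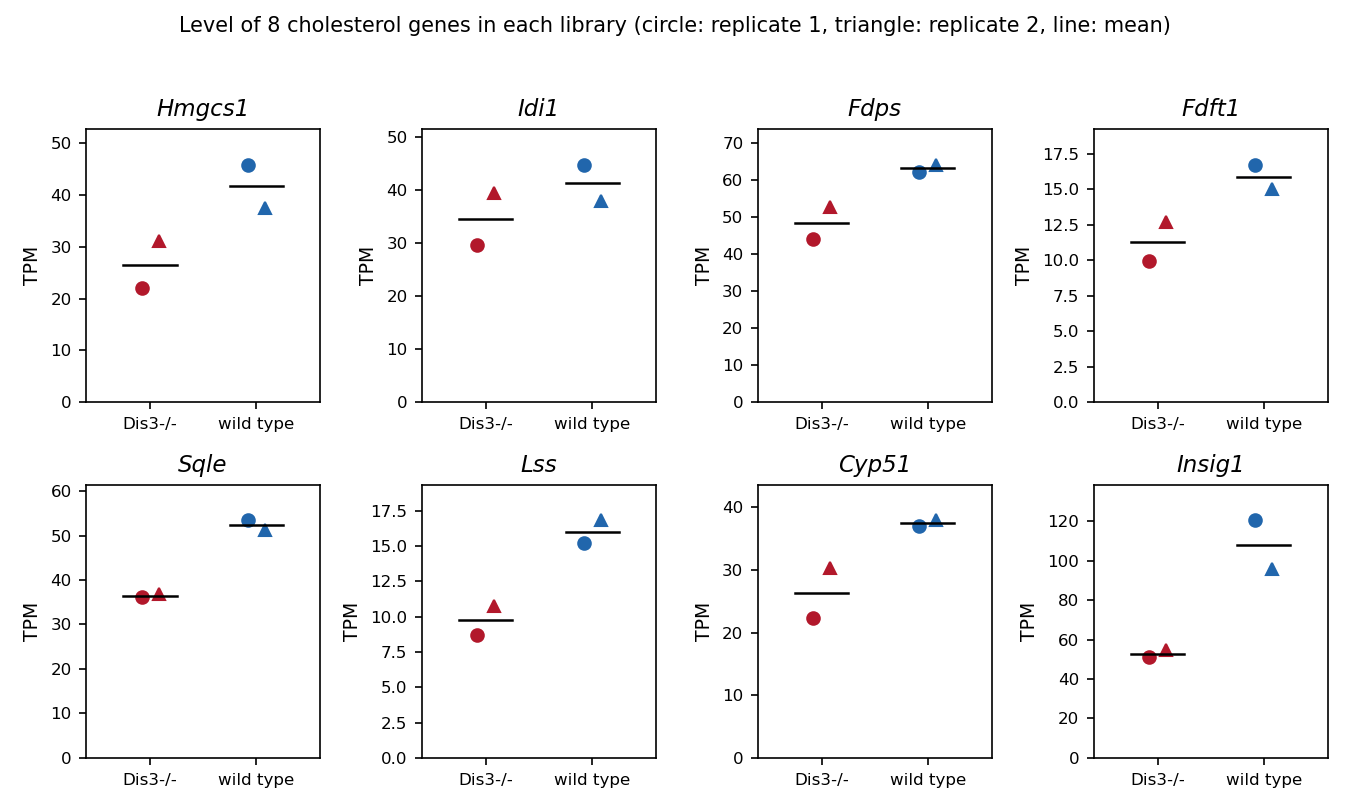
Level of each of the 8 genes in TPM (a level per transcript length, scaled to a common total), with 2 Dis3-/- libraries on the left and 2 wild-type libraries on the right of each panel; circles are replicate 1, triangles replicate 2 and lines the means. The genotypes are apart in 7 panels and overlap for Idi1, and the Dis3-/- circle lies below the triangle in each panel, most narrowly for Sqle (36.2 and 36.8 TPM).

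Insig1 (chromosome 5, 28071412 to 28078662), whose protein holds SCAP in the endoplasmic reticulum, changed most. It stood at 51.0 and 54.6 TPM in Dis3-/- libraries, against 120 and 95.8 TPM in wild-type libraries. The gap between genotypes was wider than that between the wild-type libraries. It fell to 52.7% of the wild-type level, a log2 fold change of -0.92 ± 0.11 by edgeR (SE; adjusted p = 8.26e-05). It passed under each of the 14 alternatives tried, with log2 fold changes of -1.07 to -0.76 and adjusted p-values up to 0.0306. Insig1 shares no annotated bases with another gene in GENCODE M21.

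Among the enzymes that build the isoprenoid units, Hmgcs1 (chromosome 13, 119690351 to 119708260) makes HMG-CoA from acetyl-CoA units. Its level was 22.1 and 31.0 TPM in Dis3-/- libraries, against 45.9 and 37.4 TPM in wild-type libraries. Both Dis3-/- libraries were below both wild-type libraries, but the gap between the nearest libraries of the genotypes was narrower than that between replicates. Hmgcs1 fell to 68.7% of the wild-type level, or by -0.54 ± 0.15 on the log2 scale (edgeR adjusted p = 0.0202). It did not pass when Dis3-/- replicate 1 was left out (-0.33; edgeR, adjusted p = 0.124), nor when wild-type replicate 1 was (-0.40; edgeR, adjusted p = 0.126). By DESeq2 (adjusted p = 0.0641) and in TPM it was not called either.

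Idi1 (chromosome 13, 8885606 to 8892396) interconverts the pair of isoprenoid units. It had 29.7 and 39.5 TPM in Dis3-/- libraries, against 44.8 and 38.0 TPM in wild-type libraries, so that the genotypes overlapped. Its log2 fold change of -0.15 ± 0.14 did not pass (edgeR adjusted p = 0.498), with a 95% interval of -0.46 to 0.16. Without Dis3-/- replicate 1 its value was 0.03.

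Fdps (chromosome 3, 89093588 to 89101967) condenses these units to farnesyl diphosphate. It had 44.1 and 52.7 TPM in Dis3-/- libraries, against 62.2 and 64.1 TPM in wild-type libraries. The libraries did not overlap between genotypes, but the log2 fold change of -0.28 ± 0.16 did not pass (edgeR adjusted p = 0.227, 95% interval -0.61 to 0.06). Fdft1 (chromosome 14, 63145150 to 63181687) encodes squalene synthase, the first step committed to sterols. It had 9.98 and 12.7 TPM in Dis3-/- libraries, against 16.8 and 15.01 TPM in wild-type libraries, again without overlap. On the log2 scale it differed by -0.38 ± 0.18, which did not pass (edgeR adjusted p = 0.151, 95% interval -0.76 to 0.01). With 98.6 to 175 expected counts per library it was the least deeply counted of the 8 genes.

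Sqle, Lss and Cyp51, which act in turn on squalene and its products, fell. Sqle (chromosome 15, 59315092 to 59331193), squalene epoxidase, a slow step of the route, had 36.2 and 36.8 TPM in Dis3-/- libraries, against 53.4 and 51.2 TPM in wild-type libraries. Replicates lay close together and the genotypes far apart. Sqle fell to 75.3% of the wild-type level (-0.41 ± 0.12, edgeR adjusted p = 0.0207). It passed on TPM values too, but not with DESeq2 (adjusted p = 0.128) or with any 1 of the 4 libraries left out (edgeR adjusted p = 0.0503 to 0.0882), while its log2 fold change stayed between -0.43 and -0.39 when a library was left out.

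Lss (chromosome 10, 76531565 to 76557139), lanosterol synthase, closes the ring system. It had 8.73 and 10.8 TPM in Dis3-/- libraries, against 15.2 and 16.8 TPM in wild-type libraries, with no overlap. Lss fell to 65.9% of the wild-type level (-0.60 ± 0.15, edgeR adjusted p = 9.8e-03), further than the other 6 enzymes among the 8 genes. Leaving out Dis3-/- replicate 1 (-0.47; edgeR, adjusted p = 0.0520) or wild-type replicate 2 (-0.52; edgeR, adjusted p = 0.0519) ended the call, as did DESeq2 and TPM values.

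Cyp51 (chromosome 5, 4080674 to 4104697), lanosterol demethylase, had 22.4 and 30.3 TPM in Dis3-/- libraries, against 37.0 and 37.9 TPM in wild-type libraries. The wild-type libraries were close and the Dis3-/- libraries further apart, with replicate 1 the lower. Cyp51 fell to 76.0% of the wild-type level (-0.40 ± 0.13, edgeR adjusted p = 0.0443). With Dis3-/- replicate 1 left out its value was -0.21 (edgeR, adjusted p = 0.337), and leaving out either wild-type library, DESeq2 and TPM values ended the call too.

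Summed over the 8 genes, expression was 224 and 268 TPM in Dis3-/- libraries, against 396 and 356 TPM in wild-type libraries. The lower Dis3-/- library was replicate 1, which also lay below replicate 2 for 7 of the 8 genes in CPM (counts scaled to TMM-adjusted library sizes); Sqle was the exception, at 44.1 and 43.6 CPM. In level per length, the order in Dis3-/- cells was Insig1, Fdps, Sqle, Idi1, Hmgcs1, Cyp51, Fdft1 and Lss, with means of 52.8 to 9.74 TPM. Libraries of neighbours in this order overlapped except between Fdps and Sqle and between Cyp51 and Fdft1. In wild-type cells the order was Insig1, Fdps, Sqle, Hmgcs1, Idi1, Cyp51, Lss and Fdft1, with means of 108 to 15.9 TPM, and libraries of neighbours overlapped only for Hmgcs1 with Idi1 and Lss with Fdft1. Insig1 thus led in both genotypes, and in Dis3-/- cells its libraries overlapped with those of Fdps.

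Some of the 8 genes share annotated exon bases with other genes, and whether counting used the strand was not given in the sources used here. Fdft1 shares 774 exon bases with the lysosomal protease gene Ctsb on the opposite strand. Ctsb had 829 and 1098 expected counts in Dis3-/- libraries, against 1276 and 1018 in wild-type libraries (log2 fold change -0.15 ± 0.10, edgeR adjusted p = 0.327). Cyp51 shares 166 with Akap9, a gene of a scaffold protein (-0.02 ± 0.08, edgeR adjusted p = 0.910; above 0 without Dis3-/- replicate 2 or wild-type replicate 2). Lss shares 381 with the antisense model 4930483K19Rik, which had 0 and 4.44 expected counts in Dis3-/- libraries, against 5.58 and 2.04 in wild-type libraries. Hmgcs1 shares 557 with Gm48342 and Idi1 323 with Gm48574 on opposite strands, and Fdps 1124 with Gm43738 on its own strand. Sqle, like Insig1, shares none.

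Most of the other enzymes of synthesis had lower values in Dis3-/- cells, but few were called. Of 14 tested, 3 fell and 2 rose, with a median log2 fold change of -0.30. Over all tested genes, 10.2% were called lower and 12.7% higher, and the number that rose was near that share. The log2 fold change was below 0 for 11 of the 14, and for 6164 of all 12244 tested genes. In 9 both Dis3-/- libraries lay below both wild-type libraries, which held for 30.5% of all tested genes. In 2 both lay above, which held for 3903 of all tested genes. Hsd17b7, a sterol ketone reductase, had 4.38 and 8.91 CPM in Dis3-/- libraries, against 15.8 and 15.4 CPM in wild-type libraries (-1.22 ± 0.29, edgeR adjusted p = 8.72e-03). Its 26 and 57 counts in Dis3-/- libraries differed from each other, and its log2 fold change was -0.81 without Dis3-/- replicate 1 and -1.83 without Dis3-/- replicate 2. In TPM Hsd17b7 was not called.

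The risers were Ebp and Lbr. Ebp, a sterol isomerase, had 26.8 and 26.3 CPM in Dis3-/- libraries, against 16.9 and 15.7 CPM in wild-type libraries (log2 fold change 0.70 ± 0.17, edgeR adjusted p = 9.62e-03; not called by DESeq2, at 0.0792, or in TPM without a filter, at 0.0527). Lbr encodes the lamin B receptor, a protein of the nuclear envelope that also has sterol reductase activity. It had 344 and 349 CPM in Dis3-/- libraries, against 283 and 308 CPM in wild-type libraries (0.23 ± 0.07, edgeR adjusted p = 0.0387). The Lbr call ended without Dis3-/- replicate 2 or wild-type replicate 1, with upper-quartile scaling, with the replicate block (edgeR, adjusted p = 0.0641), by DESeq2 and in TPM. The other 9 enzymes did not pass: Acat2 (-0.44 ± 0.16, edgeR adjusted p = 0.0639; 0.0430 with the replicate block, and -0.65 with 7.31e-03 without wild-type replicate 1), Msmo1 (-0.42 ± 0.20), Mvk (-0.38 ± 0.25), Tm7sf2 (-0.34 ± 0.41), Sc5d (-0.29 ± 0.17), Dhcr7 (-0.25 ± 0.13), Mvd (-0.20 ± 0.35), Pmvk (-0.15 ± 0.29) and Nsdhl (0.11 ± 0.20). Pmvk and Mvd were above 0 without wild-type replicate 2 (0.22 and 0.11), and Nsdhl was below 0 without wild-type replicate 1 (-0.00071).

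**Figure D2:**
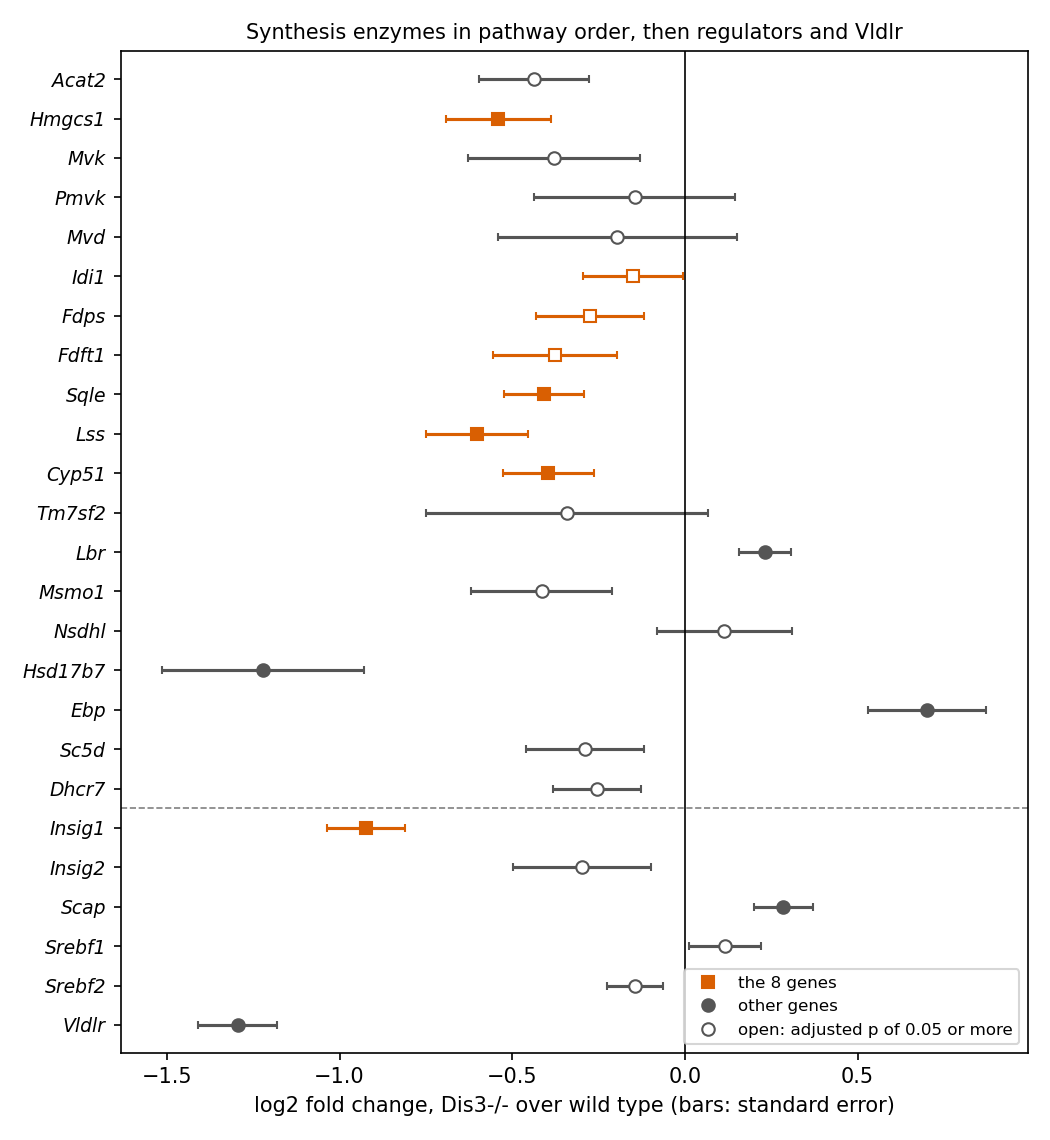
Log2 fold change of Dis3-/- over wild type (horizontal axis, bars are standard errors) for enzymes described here in the order of the pathway and, under the dashed line, sterol regulators and the receptor gene Vldlr. Squares are the 8 genes and circles other genes; filled symbols passed an edgeR adjusted p of 0.05. Insig1 (-0.92), Hsd17b7 (-1.22) and Vldlr (-1.30) lie furthest to the left and Ebp (0.70) furthest to the right.

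Of 12 tested genes that sense sterols 1 rose, Scap, and 0 fell (0 at an unadjusted p under 0.05, and 0 by DESeq2), with a median log2 fold change of -0.03, beside 12.7% of all tested genes called higher and 10.2% called lower. Scap, which escorts SREBP, had a log2 fold change of 0.28 ± 0.09 (edgeR adjusted p = 0.0279), a call that was lost when Dis3-/- replicate 1, Dis3-/- replicate 2 or wild-type replicate 2 was left out (adjusted p = 0.0706, 0.0539 and 0.173 by edgeR), as well as by DESeq2 and in TPM. Srebf2, which encodes SREBP2, did not pass (-0.14 ± 0.08, edgeR adjusted p = 0.221; 95% interval -0.32 to 0.03). Nor did Srebf1, of the related SREBP1 (0.12 ± 0.11, edgeR adjusted p = 0.470; 95% interval -0.11 to 0.34), whose value was -0.02 without wild-type replicate 2. Insig2, the paralog of Insig1, had 82 and 95 expected counts in Dis3-/- libraries, against 133 and 101 in wild-type libraries (-0.30 ± 0.20, edgeR adjusted p = 0.311; 95% interval -0.73 to 0.13). The ubiquitin ligase gene Rnf139 (-0.20 ± 0.09, edgeR adjusted p = 0.151) and Nfya (-0.13 ± 0.08, edgeR adjusted p = 0.234), an NF-Y subunit gene, did not pass either.

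Of uptake genes more were called lower than the 10.2% of all tested genes. Of 12 tested genes of uptake and lysosomal export 6 fell, with a median log2 fold change of -0.35. In this list 0 rose (0 at an unadjusted p under 0.05, and 0 by DESeq2), beside 12.7% of all tested genes called higher. Vldlr, of a lipoprotein receptor, had 51.8 and 47.2 CPM in Dis3-/- libraries, against 133 and 110 CPM in wild-type libraries (-1.30 ± 0.11, edgeR adjusted p = 6.80e-06). Npc1, of a lysosomal cholesterol exporter (-0.54 ± 0.09, edgeR adjusted p = 1.22e-03), Lrp1, a receptor gene (-0.71 ± 0.20, edgeR adjusted p = 0.0180) and the sterol carrier gene Stard4 (-0.35 ± 0.10, edgeR adjusted p = 0.0240) fell too. Vldlr and Npc1 passed with each library left out, whereas Lrp1 (-0.53) and Stard4 (-0.29) were not called without Dis3-/- replicate 2. By DESeq2 3 of the list passed; Lrp1 (-0.49) and Stard4 also lost the call without wild-type replicate 2, and Stard4 without wild-type replicate 1.

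Genes of efflux and storage were also lower, with a median log2 fold change of -0.40. Of 10 tested genes 6 were called down, beside 10.2% of all tested genes. Called up were 0 (0 at an unadjusted p under 0.05, and 0 by DESeq2), beside 12.7% of all tested genes. Apoe, of a lipoprotein component, had 55.7 and 65.0 CPM in Dis3-/- libraries, against 112 and 108 CPM in wild-type libraries (-0.86 ± 0.10, edgeR adjusted p = 7.71e-05). Abca1, of a cholesterol exporter that is a known target of liver X receptors, had 103 and 105 CPM in Dis3-/- libraries, against 164 and 157 CPM in wild-type libraries (-0.63 ± 0.08, edgeR adjusted p = 1.62e-04). Nceh1, of a cholesterol ester hydrolase (-0.58 ± 0.09, edgeR adjusted p = 4.21e-04), and Soat1, of the enzyme that esterifies cholesterol (-0.41 ± 0.12, edgeR adjusted p = 0.0204), fell as well. The Soat1 call ended without Dis3-/- replicate 2 or wild-type replicate 1, and this list had 3 calls without either library and with DESeq2. Ch25h, an interferon-inducible gene whose product makes an oxysterol, had 0 counts in each library, where 3 counts amount to 0.432 to 0.505 CPM.

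The isoprenoid branch uses farnesyl diphosphate for ubiquinone, dolichol and the lipid anchors of proteins. Of 15 tested genes 3 rose and 0 fell (0 at an unadjusted p under 0.05, and 0 by DESeq2), with a median log2 fold change of 0.24. Over all tested genes, 12.7% were called higher and 10.2% lower, so that the number called higher was near that share. At an unadjusted edgeR p under 0.05, 7 of the 15 were higher, but the share of all tested genes at that p was not worked out. In 8 of the 15 both Dis3-/- libraries lay above both wild-type libraries, which held for 3903 of all 12244 tested genes. In 2 both lay below, which held for 30.5% of all tested genes. Among those that rose were the ubiquinone gene Coq2 (0.53 ± 0.14, edgeR adjusted p = 0.0140) and the farnesyltransferase subunit gene Fntb (0.55 ± 0.16, edgeR adjusted p = 0.0261). By DESeq2 the adjusted p was 0.0672 for Coq2 and 0.142 for Fntb, and in TPM both calls were lost too. Coq2 was not called without wild-type replicate 2 (0.36), and Fntb not without Dis3-/- replicate 1 (0.36) or wild-type replicate 1. Ggps1, which extends farnesyl diphosphate, had a log2 fold change of -0.06 ± 0.13 (edgeR adjusted p = 0.763).

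Of genes of fatty acid synthesis, in part under SREBP1, the share called lower was near the 10.2% of all tested genes. Of 16 tested genes 2 fell, with a median log2 fold change of -0.07. In this list 0 rose (3 at an unadjusted p under 0.05, and 0 by DESeq2), beside 12.7% of all tested genes called higher. Both that fell were desaturase genes, Scd2 (-0.51 ± 0.08, edgeR adjusted p = 3.68e-04) and Scd1 (-1.29 ± 0.29, edgeR adjusted p = 5.39e-03); these paralogs are similar in sequence and their reads may be divided between them by estimate. Scd1 was not called in TPM. The central enzymes Fasn (0.15 ± 0.07, edgeR adjusted p = 0.131), Acaca (0.24 ± 0.08, edgeR adjusted p = 0.0550) and Acly (0.04 ± 0.07, edgeR adjusted p = 0.767) did not pass, nor did Acss2 (-0.40 ± 0.14, edgeR adjusted p = 0.0551). Leaving out wild-type replicate 1 moved Acss2 past the threshold (-0.52; edgeR, adjusted p = 0.0358), Acss2 and Acaca passed without the count filter and with robust empirical Bayes, and Acly was below 0 on TPM values and without Dis3-/- replicate 2.

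**Figure D3:**
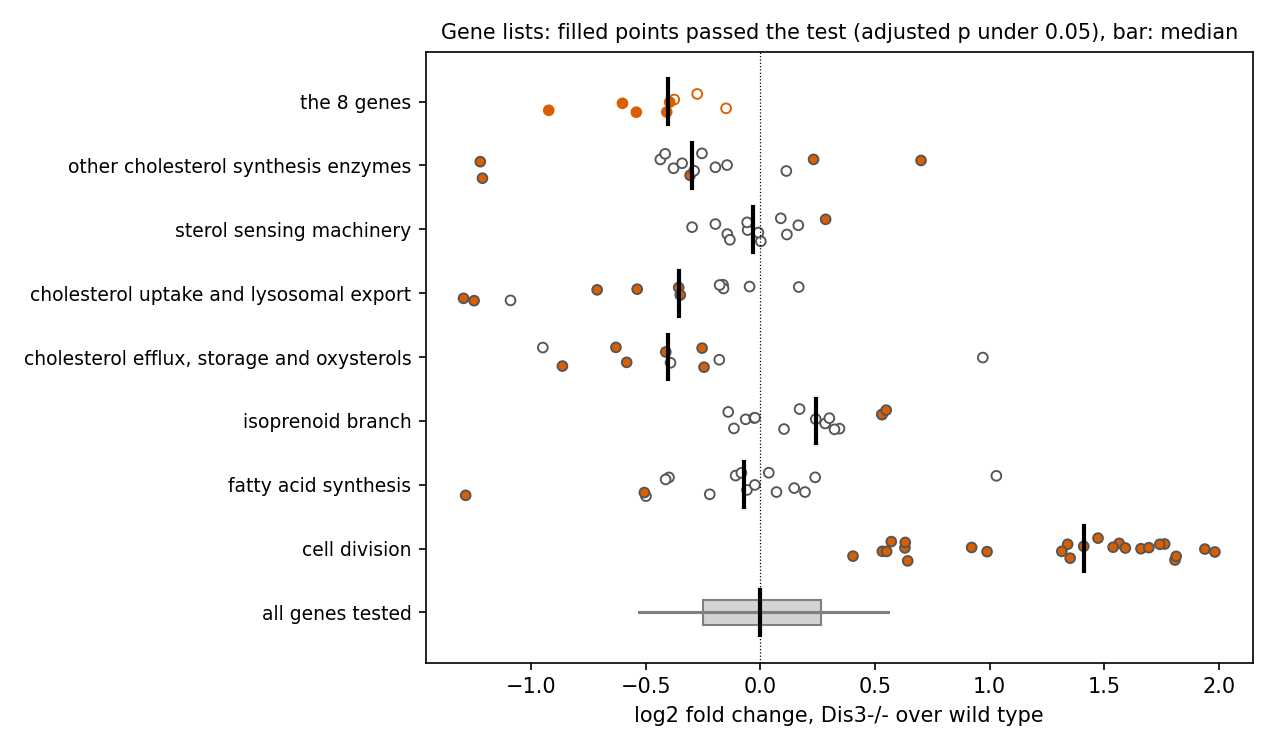
Log2 fold change of Dis3-/- over wild type for each tested gene of the pathway and cell division lists (points, filled where the edgeR adjusted p was under 0.05), with the median of each list as a black bar. The bottom row shows all 12244 tested genes, with quartiles as a box (-0.25 to 0.27) and the 10th to 90th percentiles as a line (-0.53 to 0.56). Medians of the lists drawn here run from -0.40, for the 8 genes and for efflux and storage, to 1.41 for cell division genes.

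Genes of cell division moved the other way. All 25 tested rose, beside 12.7% of all tested genes called higher, with a median log2 fold change of 1.41. Their summed level was 5518 and 5348 CPM in Dis3-/- libraries, against 2970 and 3021 CPM in wild-type libraries. The summed level of the 8 cholesterol genes was 285 and 338 CPM in Dis3-/- libraries, against 464 and 427 CPM in wild-type libraries. The part of cell division in the result was not tested.

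Genes that define the stem cell label were read next. Both genotypes were sorted as positive for EPCR and CD150. Like levels of the genes of these 2 proteins are therefore no check of the label. Procr, which encodes EPCR, had 40.1 and 46.0 CPM in Dis3-/- libraries, against 43.1 and 40.5 CPM in wild-type libraries, and the genotypes overlapped. Slamf1, which encodes CD150, had 21.0 and 25.2 CPM in Dis3-/- libraries, against 30.4 and 18.9 CPM in wild-type libraries. Beside the counts that follow, 10.2% of all tested genes were called lower and 12.7% higher. Of 12 stem cell markers 6 fell and 1, Ly6a, rose (0.43; 0.21 and not called without wild-type replicate 2, nor called in TPM or with robust empirical Bayes). Of 4 genes of proteins that the sort excludes (Cd48), that mark progenitors (Flt3, Cd34) or that blood cells share (Ptprc), 3 fell (Flt3, Cd34 and Ptprc), and their summed level was 568 and 535 CPM in Dis3-/- libraries, against 749 and 726 CPM in wild-type libraries.

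Markers of other cells differed by list, beside 10.2% of all tested genes called lower and 12.7% called higher. Myeloid markers (12 listed, 3 of 5 tested fell) summed to 337 and 328 CPM in Dis3-/- libraries, against 458 and 464 CPM in wild-type libraries, with Ctsg and Ly6c2 at 0 in every library. Megakaryocyte markers (2 of 7 tested fell, 1 of them, Gp5, with no call when any 1 library was left out) summed to 171 and 186 CPM in Dis3-/- libraries, against 178 and 283 CPM in wild-type libraries. Erythroid markers (2 of 6 tested fell, Gata1 and Car2, and 0 rose, with 1 at an unadjusted p under 0.05 and a higher level) summed to 674 and 565 CPM in Dis3-/- libraries, against 701 and 771 CPM in wild-type libraries, with Hbb-bs, Slc4a1 and Car1 at 0. In that list the globin gene Hbb-bt had 43.4 and 31.3 CPM in Dis3-/- libraries, against 27.7 and 29.5 CPM in wild-type libraries (0.38 ± 0.17, edgeR adjusted p = 0.116), and Alas2, of a heme synthesis enzyme, had 5.89 and 1.72 CPM in Dis3-/- libraries, against 2.31 and 1.27 CPM in wild-type libraries (1.06 ± 0.61, edgeR adjusted p = 0.233). Hbb-bt passed without Dis3-/- replicate 2 (0.61; edgeR, adjusted p = 0.0210), and Alas2 was below 0 without Dis3-/- replicate 1 (-0.0605). Endothelial and stromal markers (2 of 4 tested fell) summed to 98.3 and 93.7 CPM in Dis3-/- libraries, against 165 and 161 CPM in wild-type libraries. Lymphoid markers (0 of 2 tested called, and 0 at an unadjusted p under 0.05) summed to 85.0 and 66.6 CPM in Dis3-/- libraries, against 62.2 and 88.0 CPM in wild-type libraries, with Ebf1, Rag1, Cd3e and Il7r at 0 and with most of the sum from Nkg7, a gene of cytotoxic cells (81.6 and 64.1 CPM in Dis3-/- libraries, against 60.5 and 85.0 CPM in wild-type libraries). The other sums rested on few genes too, so that a lower sum is not a measure of fewer such cells. Passing the filter on low counts were 4 of 10 listed endothelial and stromal markers, 6 of 12 erythroid markers and 7 of 10 megakaryocyte markers. Most of the endothelial and stromal sum was Pecam1 (74.7 and 65.0 CPM in Dis3-/- libraries, against 110 and 112 CPM). Most of the erythroid sum was Car2 (497 and 436, against 543 and 591 CPM). Vwf led the megakaryocyte sum (88.7 and 139, against 96.7 and 181 CPM). Lyz2 (180 and 168, against 183 and 198 CPM) and Csf3r (122 and 125, against 212 and 202 CPM) led the myeloid sum. Whether such cells were present, and their part in the fall of the cholesterol genes, was not tested.

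The genes whose profiles were most like the mean profile of the 8 genes were Madd, Poli and Suox. Likeness was the root mean square difference of log2 CPM, centred over the 4 libraries, among 9426 other genes that averaged 10 CPM or more. It was 0.00715 for Madd, whose product regulates Rab proteins (log2 fold change -0.44 ± 0.09, edgeR adjusted p = 3.75e-03), 0.0196 for the DNA polymerase gene Poli (-0.42 ± 0.13, edgeR adjusted p = 0.0363) and 0.0217 for the sulfite oxidase gene Suox (-0.43 ± 0.24, edgeR adjusted p = 0.213). None is an enzyme of sterol synthesis.

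**Figure D4:**
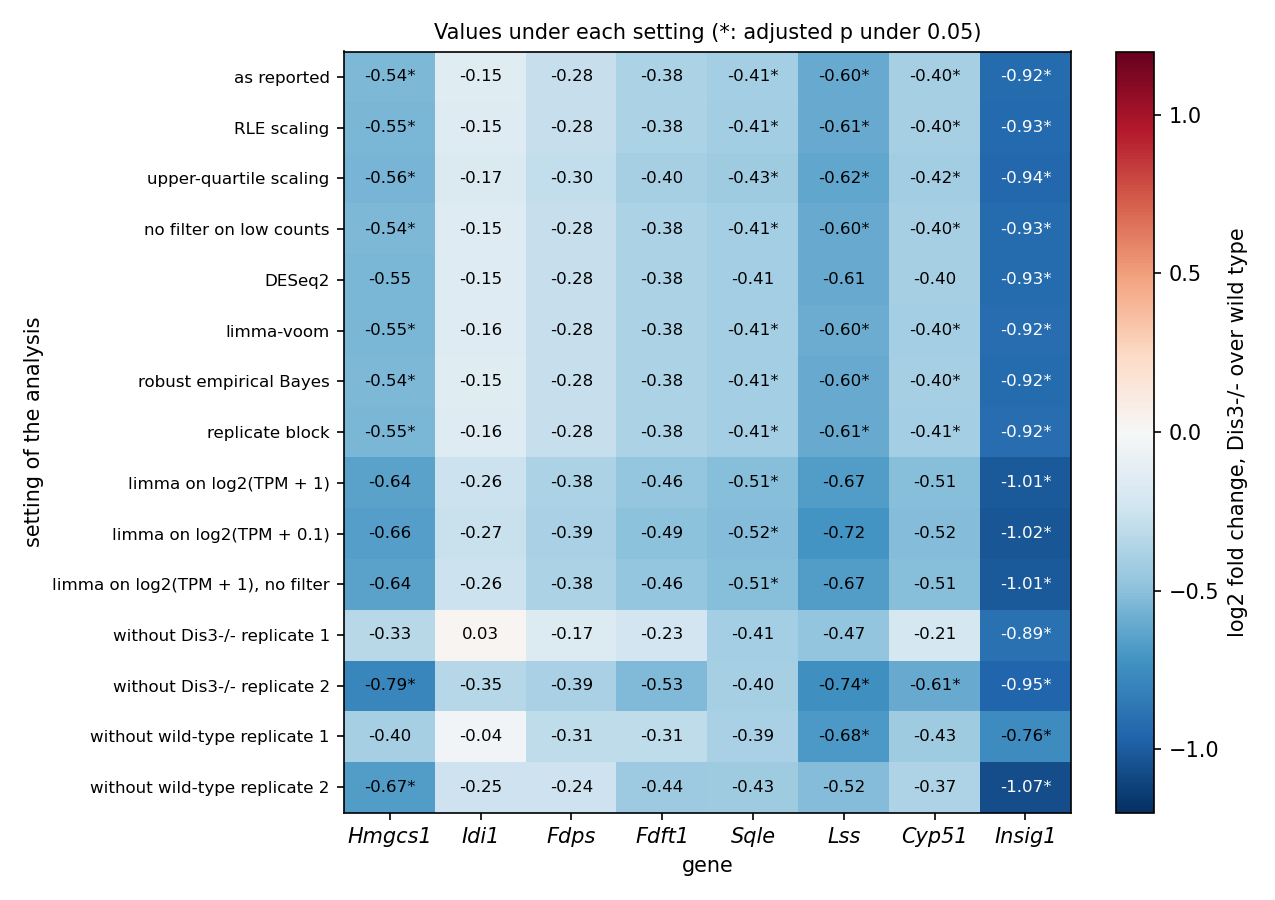
Log2 fold change of Dis3-/- over wild type (colour and number) for the 8 genes (columns) under each setting of the analysis (rows), with an asterisk where the adjusted p was under 0.05. Insig1 has an asterisk in each row, and the row without Dis3-/- replicate 1 has values nearer 0 for Hmgcs1 (-0.33), Idi1 (0.03), Fdps (-0.17), Fdft1 (-0.23) and Cyp51 (-0.21).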

How the data were processed

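RamDA-seq, which reads total RNA over its whole length from not-so-random primers, and Nextera XT were used on 100 sorted cells a library, per the labels' protocols. RSEM 1.3.3, STAR 2.7.8a, Trim Galore 0.6.6 and the build mm10 appear in the submitters' processing notes; the gene annotation and use of strand were not given in the sources used here. The authors deposited expected counts (not normalized, 92.3% to 92.6% of values whole) and TPM values per length, as 2 tables.

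Expected counts were rounded and fitted with edgeR 4.0.16 in R 4.3.3 for all genes: filterByExpr (minimum count 10, total 15), TMM scaling, glmQLFit and a two-sided glmQLFTest, Benjamini-Hochberg adjustment over 12244 genes and a threshold of 0.05. Fold changes are Dis3-/- over wild type, and the SE is the log2 fold change without its sign divided by the root of F; intervals use the moderated degrees of freedom. The fit was also run on simulated counts, drawn with the same replicate spread for every gene. That run is no check of the calls reported here. Levels are TPM, or CPM on TMM-scaled library sizes. Alternatives used DESeq2 1.42.0, limma 3.58.1 on voom values or on log2(TPM + 1) and log2(TPM + 0.1) with a mean of at least 1 TPM or no filter, other scalings, no count filter, robust empirical Bayes, the replicate number as a block, and each library left out, where a lone library is assumed to vary like the others. With 2 libraries a group, an exact permutation test cannot reach the threshold.

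No pair of libraries held identical values, and replicates were kept apart on the design text's 2 mice. Floors of 3 counts cover counting error only. Members and lists were chosen with earlier results of these data known, so lists are described by counts and medians. Named were the 8 genes, Dis3, the other synthesis enzymes, up to 4 genes with the smallest p per further list, Srebf1, Srebf2, Scap, Insig2 and the 3 genes most like the 8 in profile; Ctsb, Akap9, 4930483K19Rik, Stard4, Ch25h, Ggps1, Fasn, Acly, Procr, Slamf1, Ly6a, Hbb-bt, Alas2 and Nkg7 were added outside this rule, once their values had been seen. Some genes of these lists are counted but not reported singly here. Columns of other samples numbered 0.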

Additional observations from a re-analysis of the deposited data

How the results depend on the processing

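Of 112 values of the 8 genes under 14 alternatives, 87 kept their direction and side of the threshold, 24 lost the call and 1 reversed. Over all genes, 2811 were called, but 1571 with DESeq2, 1778 on log2(TPM + 1) and 950 on log2(TPM + 1) without a filter; leaving out a library gave 2112 to 2352. Of the 8 genes 5 were called, but 1 with DESeq2, 2 on log2(TPM + 1), 2 on log2(TPM + 0.1), 2 on log2(TPM + 1) without a filter, and 1 to 4 with a library left out. In the other lists together 67 genes were called, but 40 on log2(TPM + 1) without a filter. With DESeq2 the uncalled log2 fold changes were -0.55 (Hmgcs1), -0.41 (Sqle), -0.61 (Lss) and -0.40 (Cyp51). On log2(TPM + 1) they were -0.64 (Hmgcs1), -0.67 (Lss) and -0.51 (Cyp51), the same without a filter, and on log2(TPM + 0.1) -0.66, -0.72 and -0.52. With a library left out, Hmgcs1 ranged from -0.79 to -0.33, Idi1 from -0.35 to 0.0251, Sqle from -0.43 to -0.39, Lss from -0.74 to -0.47 and Cyp51 from -0.61 to -0.21. The cause was not tested.

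The other genes followed here were pathway genes, Dis3, the overlapping genes Ctsb and Akap9, and Madd, Poli and Suox. Among them, Acly reversed on log2(TPM + 1) with or without a filter (-0.0747) and on log2(TPM + 0.1) (-0.0751). With a library left out, Acly ranged from -0.000197 to 0.0791, Akap9 from -0.0755 to 0.0461, Pmvk from -0.45 to 0.22, Mvd from -0.46 to 0.11, Nsdhl from -0.00071 to 0.23 and Srebf1 from -0.0237 to 0.27. Of the 658 values of these genes 565 kept their direction and side of the threshold, 72 lost a call, 11 gained a call and 10 reversed; of 459 values of marker and cell division genes, 17 reversed, 5 of them of Procr and 2 of Slamf1.

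With the replicate block 2614 genes were called over all, 5 of them among the 8. Same-numbered libraries share only a number: their deviations from the genotype means correlated at -0.0293 over genes. Apart from Lbr, Acat2 and the megakaryocyte gene Gp5 (edgeR adjusted p = 0.0689), the block changed no call of a gene named here. Of the 8 genes, Fdft1 had the fewest counts (98.6 to 175 per library), and its log2 fold change of -0.38 was not called. The part of depth in this was not tested.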
